A study of Mus musculus with 5 samples.

Results

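Messenger RNA levels of 38 nuclear-encoded genes named as subunits of respiratory complex I are described here in mouse hearts after a high-fat, high-sucrose (HFHS) diet or standard chow. Of these, 36 are placed in complex I. Ndufa4, now counted with complex IV, and its paralog Ndufa4l2 carry the name and were kept. The members were all protein-coding genes of the count tables whose GENCODE symbol begins with Ndufa, Ndufb, Ndufc, Ndufs, Ndufv or Ndufab and goes on with a number. Assembly factors (Ndufaf) were left out, and so were 4 processed pseudogenes whose symbols match, which had 0 to 8 counts per library. The rule took 38 of 49315 genes, used no measured value, and all 38 members passed the filter on low counts.

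There were 3 HFHS libraries and 2 chow libraries of poly-A enriched RNA from 10 mg of frozen heart each, with the cell type labelled as mixed. The diets had been fed for 18 weeks, and iron dextran had been given once into a vein in both groups, 48 hours before the hearts were perfused with saline and taken. The sources used here give no strain, sex or age, and no heart without iron is part of the comparison, so the groups differ by diet on a shared background of iron. That each library is a separate mouse rests on the labels alone, and a p-value here reflects no more than the spread among these 5 libraries.

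Complex I is the entry point of electrons from NADH into the mitochondrial respiratory chain, and heart muscle, which lives on oxidative metabolism, holds much of it. A peripheral arm in the matrix carries the N module, which oxidises NADH, and the Q module, which passes the electrons through iron-sulfur clusters to ubiquinone. A membrane arm, with a proximal and a distal part, pumps protons. The catalytic core is split between genes of the nucleus and of mitochondrial DNA, and the other subunits, all nuclear-encoded, are accessory and serve assembly and stability.

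Transcripts of 34 of the 38 genes were lower in HFHS than in chow hearts, 1 was higher and 3 did not pass (edgeR quasi-likelihood test, Benjamini-Hochberg adjusted p of 0.05 over 14221 genes). Among all genes tested, 18.7% were called lower and 19.4% higher by the same rule. The median log2 fold change, HFHS minus chow, was -0.68 over the members and -0.01 over all tested genes. Of the 36 members placed in complex I, 32 were lower, 1 was higher and 3 did not pass, with a median of -0.68. The libraries of the diets did not overlap for any member: every HFHS library lay below both chow libraries for 36 genes and above both for Ndufs1 and Ndufa10. Among all tested genes, 29.4% lay wholly below and 29.2% wholly above in the same way. The gene that rose was Ndufs1, the largest subunit of the complex, and Ndufv1 and Ndufa10 were among those that did not pass. Short genes were lower in HFHS libraries in general, and how much of the members' difference is shared with other genes of like length is given after the modules.

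Promoter sequences are shown for 3 members that were lowest in HFHS relative to chow, Ndufb4, Ndufa4 and Ndufc1, and for 2 that did not pass, Ndufv1 and Ndufa10, so that the letters upstream of genes with different readouts can be set side by side. They are RefSeq windows (GRCm38.p6) that begin 250 bases before the start, cut to the stretch that lies in no exon of the count tables, 5′ to 3′ on the gene's strand, which is minus for all 5. Capitals mark a match, on either strand, to the letters GCGCANG (bound by NRF1), AAGGTCA (ERR receptors), CCGGAAG (ETS factors, GABP among them), AAGATGG (YY1) or GGGCGG (SP1), where N is any base. These factors are known regulators of respiratory genes. In the printed stretches no matches overlap each other.
Ndufb4 (chr16:37654454-37654618): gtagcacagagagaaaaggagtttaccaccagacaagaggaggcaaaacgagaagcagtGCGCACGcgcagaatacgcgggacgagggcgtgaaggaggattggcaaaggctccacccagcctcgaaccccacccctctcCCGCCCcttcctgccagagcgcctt
Ndufa4 (chr6:11907498-11907700): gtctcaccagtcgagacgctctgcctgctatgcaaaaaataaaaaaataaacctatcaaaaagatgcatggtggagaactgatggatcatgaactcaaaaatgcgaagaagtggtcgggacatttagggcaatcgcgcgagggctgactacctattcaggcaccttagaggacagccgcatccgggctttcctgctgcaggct
Ndufc1 (chr3:51408989-51409205): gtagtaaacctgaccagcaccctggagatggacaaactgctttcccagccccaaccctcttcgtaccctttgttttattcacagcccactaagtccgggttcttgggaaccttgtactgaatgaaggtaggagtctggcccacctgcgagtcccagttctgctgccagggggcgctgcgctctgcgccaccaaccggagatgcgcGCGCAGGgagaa
Ndufv1 (chr19:4012807-4013005): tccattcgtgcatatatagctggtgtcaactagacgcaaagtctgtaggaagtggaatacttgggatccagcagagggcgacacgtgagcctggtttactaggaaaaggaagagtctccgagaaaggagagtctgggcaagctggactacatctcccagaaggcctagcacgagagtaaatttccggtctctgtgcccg
Ndufa10 (chr1:92473861-92474008): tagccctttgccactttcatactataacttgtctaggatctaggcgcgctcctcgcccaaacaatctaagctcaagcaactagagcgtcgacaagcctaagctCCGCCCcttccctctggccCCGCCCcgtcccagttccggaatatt
The stretches of Ndufb4 and Ndufc1 each hold 1 match to the NRF1 letters, Ndufb4 also 1 and Ndufa10 2 matches to the SP1 letters, and Ndufa4 and Ndufv1 hold none of the 5 motifs. No motif was thus shared by all 3 lowered genes, or by both of the others, within these stretches. The stretches end at -86 (Ndufb4), -48 (Ndufa4), -34 (Ndufc1), -52 (Ndufv1) and -103 (Ndufa10) from the start. Matches nearer the start are therefore not shown, and the missing part differs between the genes. In whole windows, from 250 bases before to 50 after the start, 33 of the 38 members were matched by symbol (Ndufa2, Ndufa4l2, Ndufb9 and Ndufs1 were among those that were not), with 35 windows. The NRF1 letters stood in 42.86% of the members' windows, 28.5% of 13553 windows of tested genes and 16.6% of all 32851 windows. For YY1 the shares were 20.0%, 6.74% and 6.34%, and for ERR 8.57%, 3.26% and 4.72%. The ETS letters stood in 11.43%, 16.34% and 8.86%, and the SP1 letters in 45.71%, 60.55% and 35.66%. A match is a run of letters and not a shown binding site, and 6 of the members' windows had no match to any of the 5.

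**Figure D1:**
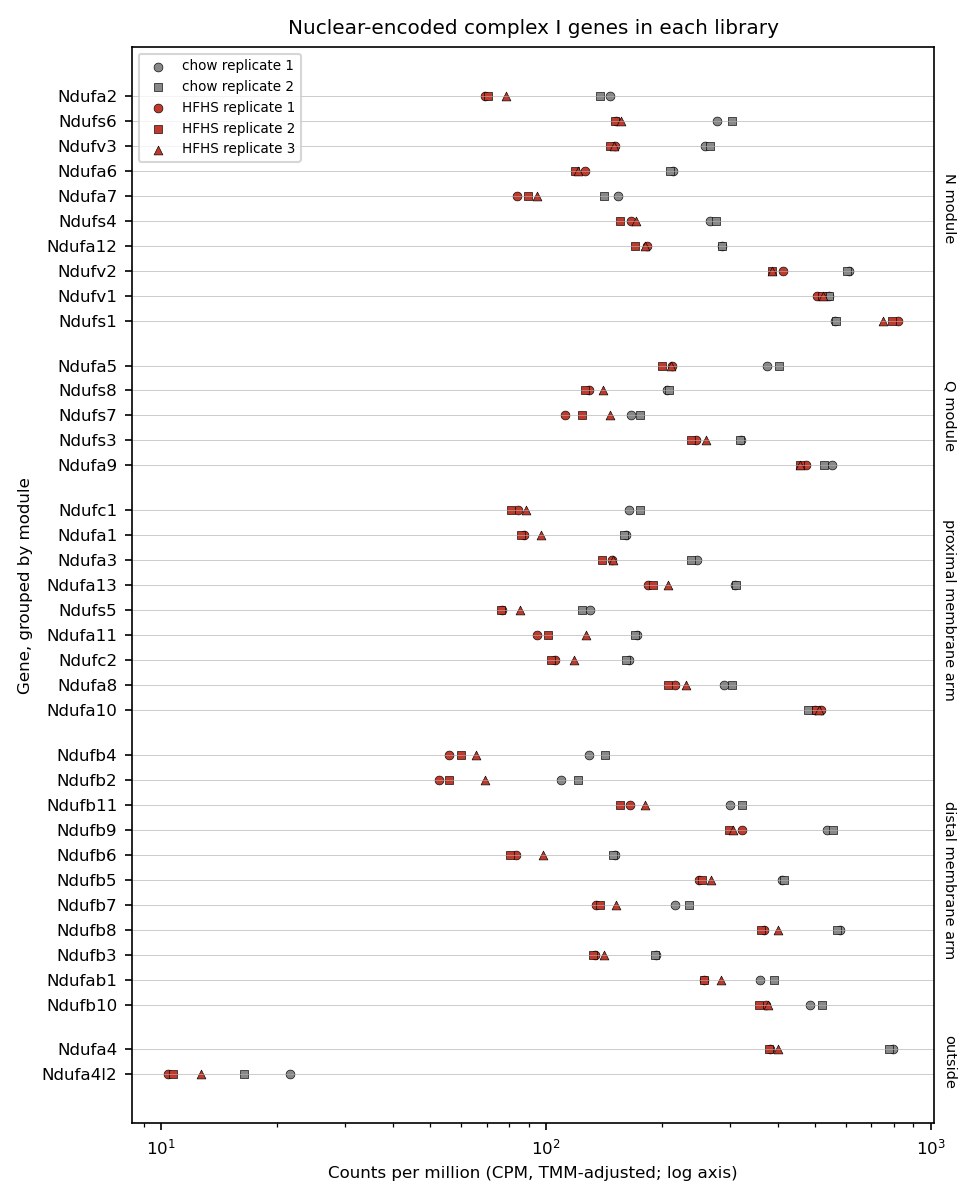
Level of the genes reported here by name in each of the 5 libraries, in CPM (TMM-adjusted, log axis), grouped by module; grey symbols are chow and red symbols HFHS libraries. Red lies left of grey for every gene shown except Ndufs1 and Ndufa10, where it lies right.

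In the N module, the NADH-oxidising tip, 8 of 10 genes fell, Ndufs1 rose and Ndufv1 did not pass, and the median log2 fold change was -0.72. Ndufs1 (ENSMUSG00000025968, chromosome 1, 63143596 to 63176833, GRCm38) encodes a core subunit that carries several iron-sulfur clusters. In CPM, the count scaled by library size, HFHS replicates 1, 2 and 3 had 820.4, 791 and 750.0 CPM, and chow replicates 1 and 2 had 562 and 565 CPM. The HFHS hearts were all above the chow hearts, with a wider spread among themselves than the chow pair. The level was 1.40-fold higher, or 0.48 on the log2 scale (SE 0.0686; edgeR adjusted p 8.75e-05), and it was called higher in all 18 alternative fits.

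Ndufv1 (ENSMUSG00000037916, chromosome 19, 4007497 to 4012806) encodes the flavin-binding subunit that takes the electrons from NADH. Its HFHS values were 506, 522 and 525 CPM, and its chow values 545 and 544 CPM. The HFHS hearts lay just below the chow hearts, and the gap to the nearest of them was about the width of the HFHS spread. The log2 fold change was -0.07 (SE 0.0651) with an edgeR adjusted p of 0.407. Ndufv2, which holds a further iron-sulfur cluster next to Ndufv1, stood at 411, 387 and 386 CPM in HFHS and 613 and 604 CPM in chow libraries. Unlike its partner it was clearly separated between the diets, 1.54-fold lower with a log2 fold change of -0.62 (SE 0.0665; edgeR adjusted p 7.28e-06). The 3 core genes of the NADH-oxidising tip thus differed in direction and call.

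The 7 accessory genes of the N module all fell, with log2 fold changes from -0.97 to -0.68 and a median of -0.80. Ndufa2, a small subunit with a thioredoxin-like fold, had HFHS values of 69.3, 70.4 and 78.7 CPM and chow values of 147 and 138 CPM. It was 1.95-fold lower, and HFHS replicate 3 was the nearest to chow. Ndufs6, a zinc-binding subunit, stood at 152, 151 and 157 CPM against 277 and 303 CPM in chow and was 1.90-fold lower (log2 fold change -0.92, SE 0.0706, edgeR adjusted p 3.74e-07). Ndufv3, a subunit that is made in a short and a long isoform, went from 263 ± 5.10 CPM (SD, n = 2) in chow to 149 ± 2.08 CPM (SD, n = 3) in HFHS hearts, 1.76-fold lower. Its isoforms cannot be told apart in counts per gene. Ndufs4, whose loss in mice gives a Leigh-like encephalopathy, had a log2 fold change of -0.72; Ndufa6, a protein of the LYR family, one of -0.80; and Ndufa7, one of -0.72.

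In the Q module 5 of 6 genes fell, none rose, and the median log2 fold change was -0.40, the nearest to 0 of the 4 modules. Genes of the Q module are also longer, with a median coding length of 730.5 bases against 360 to 486 in the other modules. The part of length in that difference was not tested apart. Ndufs3, a core subunit without an iron-sulfur cluster, was at 245, 238 and 259 CPM in HFHS against 319.9 and 319.6 CPM in chow hearts, with no overlap. It fell with a log2 fold change of -0.37 (SE 0.0691; edgeR adjusted p 0.000779).

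The core subunits Ndufs7 and Ndufs8 hold the last iron-sulfur clusters before ubiquinone, and both fell. Ndufs8 was at 129, 126 and 140.3 CPM in HFHS and 206 and 208 CPM in chow hearts, 1.57-fold lower. Ndufs7 stood at 112, 124 and 146 CPM against 166 and 175 CPM in chow. Its HFHS libraries were spread widely, with replicate 3 near chow, and the log2 fold change of -0.42 (SE 0.0966) had an edgeR adjusted p of 0.00339. Among the accessory genes, Ndufa5 had the largest fall of the module, from 376 and 402 CPM in chow to 212, 200.4 and 211 CPM in HFHS hearts, 1.87-fold lower (log2 fold change -0.90, SE 0.0691, edgeR adjusted p 3.84e-07). Ndufa9, a subunit at the joint of the arms, was at 473, 456 and 456 CPM against 554 and 528 CPM. Its log2 fold change was -0.23 with an edgeR adjusted p of 0.0146, and the call was lost without HFHS replicate 2 and without chow replicate 1.

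Across both modules of the peripheral arm, the 7 core subunits held 4 that fell, 1 that rose and 2 that did not pass, with a median log2 fold change of -0.37. The 29 accessory genes of all 4 modules, those of the membrane arm included, held 28 that fell and 1 that did not pass, with a median of -0.72. Core genes are also longer, with a median coding length of 789 bases against 411 for the accessory genes, and the part of length in that difference was not tested apart. Of the 5 subunits that carry iron-sulfur clusters, Ndufv2, Ndufs7 and Ndufs8 fell, Ndufs1 rose and Ndufv1 did not pass, with a median of -0.42. That median was -0.33 without HFHS replicate 1 and -0.53 without HFHS replicate 3.

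In the proximal membrane arm 8 of 9 genes fell, none rose and Ndufa10 did not pass, with a median log2 fold change of -0.68. Ndufc1 (ENSMUSG00000037152, chromosome 3, 51404677 to 51408988), a small subunit with a single membrane span, was at 84.5, 81.1 and 88.5 CPM in HFHS and 164 and 175 CPM in chow libraries. The chow hearts held 2.00-fold the HFHS level, which is -1.003 on the log2 scale (SE 0.0737; edgeR adjusted p 2.67e-07). Ndufa1, an X-linked subunit and the shortest member by exon length (419 bases), was at 87.4, 86.1 and 96.8 CPM against 161 and 159.6 CPM, 1.78-fold lower. Ndufa3, another small membrane subunit, was at 149, 139 and 149 CPM against 246 and 238 CPM, 1.66-fold lower. For both genes the gap between the diets was many times the spread within either.

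Ndufa10 (ENSMUSG00000026260, chromosome 1, 92439010 to 92473860), a subunit of the nucleoside kinase family on the matrix side of the membrane arm, had values of 518, 501 and 511 CPM in HFHS and 498 and 478 CPM in chow hearts. The groups lay next to each other, with HFHS slightly above. Its log2 fold change was 0.06 (SE 0.066) with an edgeR adjusted p of 0.487. The other falls of the proximal arm ran from -0.68 for Ndufa13, also known as GRIM-19, through -0.68 for Ndufs5, -0.67 for Ndufa11 and -0.58 for Ndufc2, to -0.44 for Ndufa8. Ndufs5 and Ndufa8 are twin-cysteine proteins that face the intermembrane space. For Ndufa11 the HFHS values were uneven, at 94.6, 101 and 127 CPM, with replicate 3 the nearest to the chow values of 172 and 169.9 CPM.

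**Figure D2:**
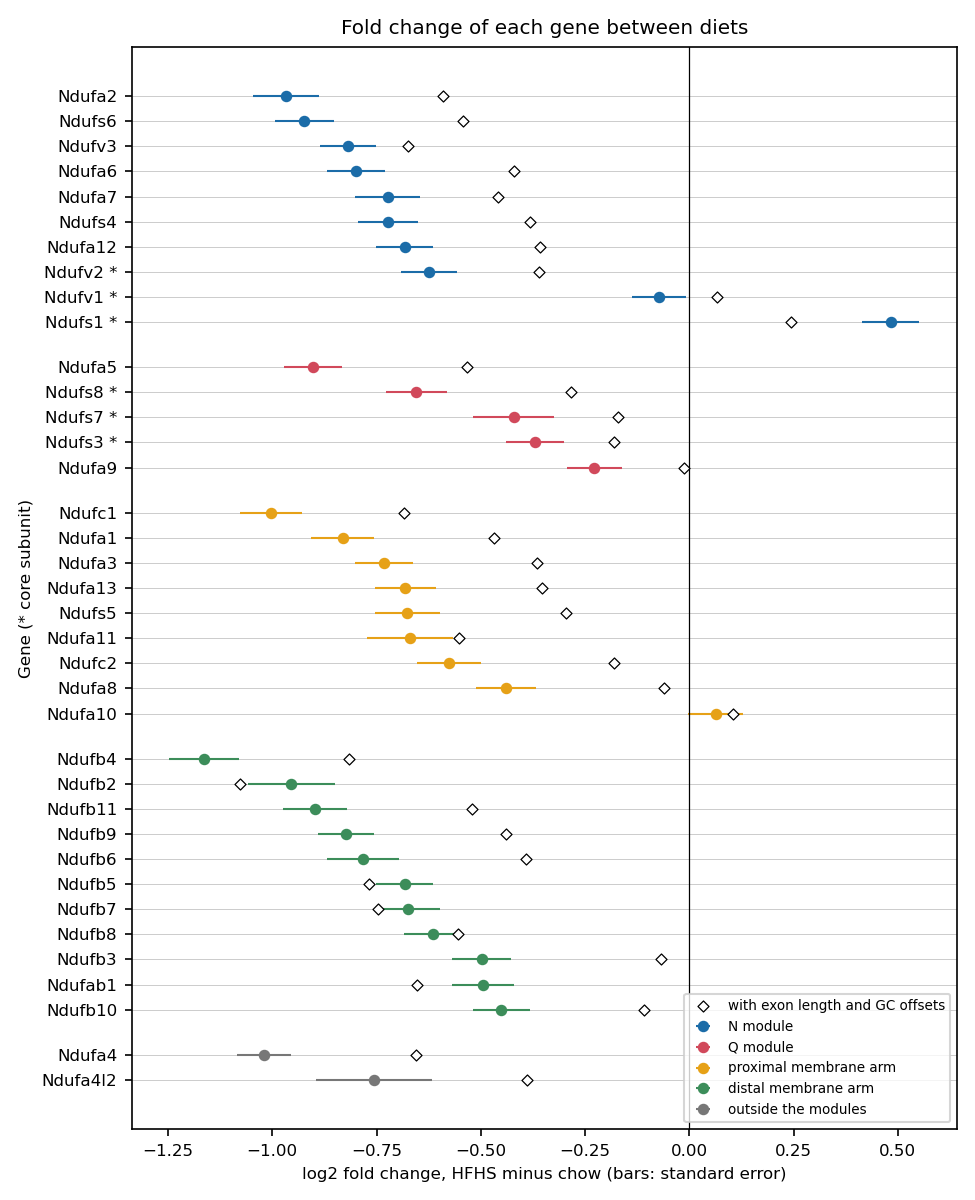
Log2 fold change (HFHS minus chow) of each gene reported here by name with its standard error, coloured by module; core subunits carry an asterisk, and open diamonds give the value after offsets for exon length and GC content. All genes shown of the distal membrane arm lie below 0, and Ndufs1 stands alone well above 0.

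All 11 members of the distal membrane arm fell, with a median log2 fold change of -0.68 and a range from -1.16 to -0.45. Ndufb1, another gene of this arm, was not among the members. Ndufb4 (ENSMUSG00000022820, chromosome 16, 37647170 to 37654453), an accessory membrane subunit, had the largest fall of all members. It was at 56.0, 60.2 and 65.8 CPM in HFHS and 129 and 142 CPM in chow libraries. Even the highest HFHS heart stood far below the lowest chow heart; the level was 2.24-fold lower, or -1.16 on the log2 scale (SE 0.0837; edgeR adjusted p 2.17e-07). Ndufb11, which is X-linked, was at 165, 156 and 181 CPM against 300.1 and 322 CPM, 1.86-fold lower. Ndufb9, a LYR family protein, was at 322, 298 and 306 CPM against 536 and 558 CPM, 1.77-fold lower. In both genes the diets were separated by several times the spread within a diet.

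The smallest fall of the distal arm was that of Ndufb10, a twin-cysteine protein, which went from 486 and 522 CPM in chow to 373, 358 and 377 CPM in HFHS hearts (log2 fold change -0.45, SE 0.0682, edgeR adjusted p 0.000147). Ndufab1, the mitochondrial acyl carrier protein, which also sits in the peripheral arm and serves fatty acid and lipoate synthesis outside the complex, had a log2 fold change of -0.50. The rest of the arm lay between: Ndufb2 at -0.95, Ndufb6 at -0.78, Ndufb5 at -0.68, Ndufb7 at -0.67, Ndufb8 at -0.62 and Ndufb3 at -0.50.

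The 2 members outside the modules fell as well. Ndufa4 (ENSMUSG00000029632, chromosome 6, 11900292 to 11907497), first described in complex I and now counted with complex IV, was at 382, 379 and 401 CPM in HFHS and 795 and 777 CPM in chow hearts. The gap between the diets was many times the spread within them, and the log2 fold change was -1.02 (SE 0.0655; edgeR adjusted p 9.76e-08). Its paralog Ndufa4l2, which hypoxia is known to induce, was the least abundant member, at 10.4, 10.7 and 12.7 CPM against 21.6 and 16.4 CPM. The chow pair was uneven; the log2 fold change of -0.76 (SE 0.139; edgeR adjusted p 0.000701) came to -0.54 when chow replicate 1 was left out and to -0.94 when chow replicate 2 was, past the threshold both times. Its call was lost with an offset for exon length alone (-0.37, edgeR adjusted p 0.0521), and over all alternatives the adjusted p ran from 9.29e-08 to 0.0521.

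Summed over all 38 members, HFHS hearts held 8833 ± 230.0 CPM (SD, n = 3) and chow hearts 12364 ± 85.2 CPM (SD, n = 2), a ratio of chow to HFHS of 1.40. The ratio was 1.59 for the distal membrane arm, 1.38 for the proximal arm, 1.27 for the N module, 1.26 for the Q module and 1.09 for the core subunits. These sums weigh abundant genes most, and were not tested. The members took 1.29% ± 0.0382 (SD, n = 3) of the nuclear-encoded counts in HFHS and 1.86% ± 0.0173 (SD, n = 2) in chow libraries. Within the HFHS group, the median log2 distance of the members from the chow mean was -0.73, -0.73 and -0.60 in replicates 1, 2 and 3, so replicate 3 was the nearest to chow. Bulk RNA cannot tell fewer cells of a type from less RNA per cell.

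**Figure D3:**
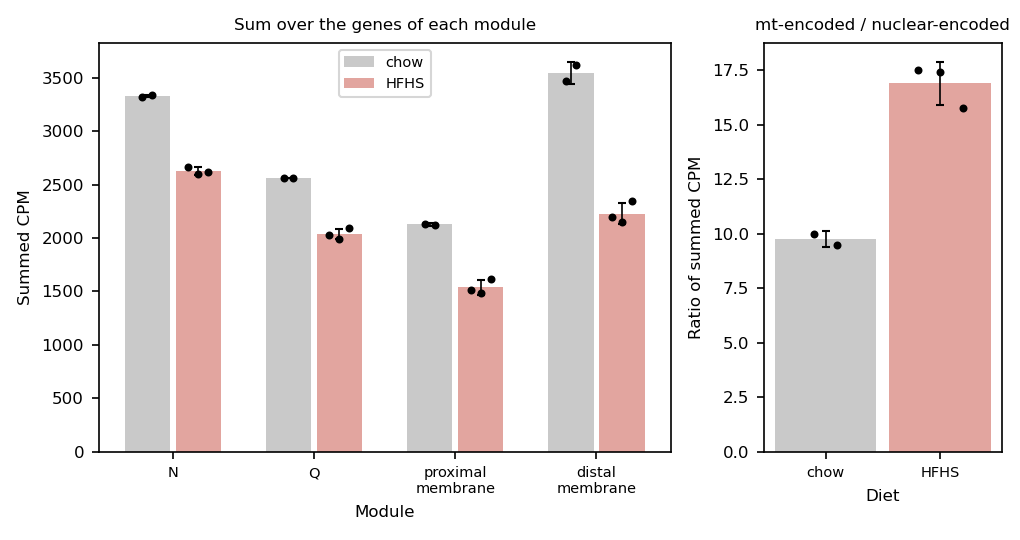
Left, summed CPM of the genes of each module in chow (grey) and HFHS (red) hearts; right, the ratio of summed CPM of the 7 mitochondrially encoded to the 38 nuclear-encoded genes. Bars are means, whiskers SD (n = 2 chow, n = 3 HFHS) and points single libraries; every HFHS point lies below chow on the left and above chow on the right.

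Levels per length placed the members over a wide range. In chow hearts Ndufb9 was highest at 840.0 CPM per kilobase of exon, followed by Ndufa4 at 569, Ndufs6 at 462 and Ndufb10 at 414. The lowest were Ndufa4l2 at 19.8 and Ndufb2 at 20.4. Exon length is the union of all annotated exons, so a rarely used long exon lowers this value: Ndufb2 had 5628 bases of exon but a coding length of 315. Per kilobase of coding sequence, Ndufa4 was highest at 3195 CPM and Ndufa4l2 lowest at 72.9 CPM, so Ndufa4l2 was at the bottom on both scales, while the top differed.

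Fold changes followed length. Among the members, the rank correlation of the log2 fold change with coding length was 0.68 (Spearman, 38 genes) and with exon length 0.45, and over all tested genes it was 0.53 (12898 genes) and 0.43 (14221 genes). Among the members the rank correlation with mean CPM was 0.51, so more abundant members also tended to fall less. Length and abundance were not tested apart. All of these are correlations across genes of the same 5 libraries, given as a description. All 16 members with a coding length under 400 bases fell, where 66.1% of the 608 tested genes of that length fell. From 400 to under 600 bases all 12 members fell, against 52.8% of 971 tested genes. From 600 to under 1000 bases all 4 fell (Ndufv2, Ndufs3, Ndufs7 and Ndufs8), against 32.9% of 2434 genes. From 1000 bases on, 2 of 6 members fell (Ndufv3 and Ndufa9) and Ndufs1 rose, where 9.31% of 8885 genes fell and 26.6% rose.

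The medians of these length classes show the same order. The members' median log2 fold change was -0.82, -0.68, -0.52 and -0.09 from the shortest to the longest class. All tested genes of the classes had medians of -0.61, -0.41, -0.24 and 0.11. Ndufs1, with a coding length of 2181 bases, was the longest member and the one that rose. Ndufv3, at 1404 bases in its long form, lay far below the other long members. Its median annotated transcript has 645 bases.

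**Figure D4:**
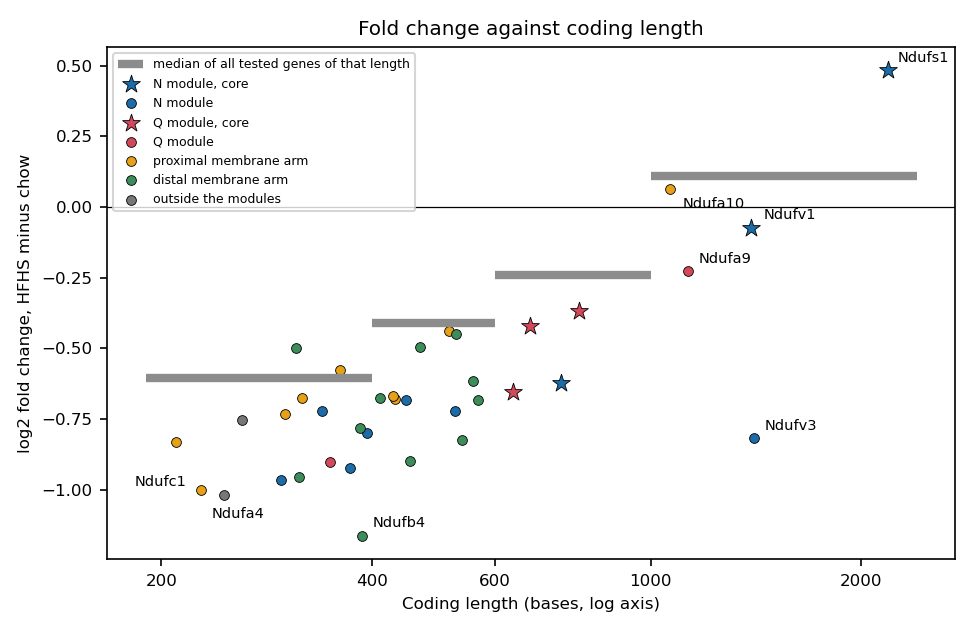
Log2 fold change (HFHS minus chow) of the members reported here by name against its coding length (bases, log axis), coloured by module, with stars for core subunits and grey bars for the median of all tested genes in 4 length classes. Members run from low left to high right alongside the grey bars, mostly below them; Ndufv3 stands below and Ndufs1 above the other long members.

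Classes of exon length gave a similar picture, apart from a few members with long annotated exons. Under 1000 bases 13 of 13 members fell, and from 1000 to under 2000 bases 12 of 12 fell, against 39.6% and 41.8% of all tested genes. From 2000 to under 4000 bases 5 of 8 fell, against 22.2%. From 4000 bases on 4 of 5 fell (Ndufb2, Ndufb5, Ndufb7 and Ndufab1), where 8.39% of all tested genes fell. Those 4 genes have coding lengths under 600 bases, so exon length and coding length disagree for them.

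When the trend of each library on exon length and GC content was fitted on genes other than the members and taken off, 27 members stayed lower, Ndufs1 stayed higher and 10 did not pass, against 16.3% of all tested genes lower and 14.4% higher. The members' median log2 fold change was then -0.39. The calls of Ndufa8, Ndufa9, Ndufb10, Ndufb3, Ndufc2, Ndufs3 and Ndufs7 were lost. Ndufb4 kept a log2 fold change of -0.82, Ndufa4 of -0.66, Ndufc1 of -0.68 and Ndufv3 of -0.67. Ndufs1 came to 0.24, against 0.48 without offsets. The 4 short-coding genes with long exons moved further below 0, to -1.08 for Ndufb2, -0.77 for Ndufb5, -0.75 for Ndufb7 and -0.65 for Ndufab1.

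Which length is used changed some calls. With the median length of the gene's protein-coding transcripts in place of exon length, 31 members were lower (16.3% of all tested genes) and 2 higher, Ndufs1 and Ndufa10 (16.4% of all), with a median log2 fold change of -0.45. Ndufs1 then rose with 0.72 and Ndufa10 with 0.23. The median protein-coding transcript of Ndufs1 has 651 bases, though its coding length is 2181, so this offset treated Ndufs1 as a short gene. With the transcript that has the longest coding sequence, 27 were lower (15.2% of all) and the same 2 higher (13.9% of all), with a median of -0.34. The order of the module medians was the same as without offsets under both transcript lengths, while with exon length the distal arm was lowest, at -0.55. That order rests on near ties, at -0.683 for the distal and -0.677 for the proximal arm without offsets. It also changed in fits without a length offset. Without chow replicate 1 the distal arm was lowest (-0.735, N module -0.716). With the replicate block the proximal arm (-0.733) lay below the distal arm (-0.729). With the longest-CDS transcript the medians were -0.37 for the N module, -0.35 for the distal arm, -0.25 for the proximal arm and -0.04 for the Q module. Of the core subunits, Ndufv2 and Ndufs8 fell under all 3 offsets, while Ndufs3 and Ndufs7 passed under none of them. Offsets did not remove every link with length: the members' rank correlation of fold change with coding length was 0.46, 0.67 and 0.51 under the 3.

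Other genes of complex I did not all move with the nuclear-encoded subunits. Of 17 assembly factors tested, 7 fell, 1 rose (Dmac2) and 9 did not pass, with a median log2 fold change of -0.19. Among all tested genes 18.7% fell and 19.4% rose. The median coding length of the assembly factors was 855 bases. All tested genes from 600 to under 1000 coding bases had a median log2 fold change of -0.24. The assembly factors with the smallest p were Ndufaf8 (-0.87), Dmac1 (-0.70) and Ndufaf3 (-0.71), all lower. With the exon length and GC offset 2 fell and 3 rose, with the median transcript length offset 4 fell and 2 rose. With the longest-CDS offset 3 fell and 2 rose. Among all tested genes these 3 offsets called 16.3%, 16.3% and 15.2% lower, and 14.4%, 16.4% and 13.9% higher. The median of the assembly factors stayed below 0 under each, at -0.13, -0.13 and -0.06. Of 41 nuclear-encoded genes of complexes II to V, 35 fell and 1 rose, with a median of -0.64, beside -0.68 for the complex I members. Under the same 3 offsets 26, 29 and 22 of these 41 fell and 3, 3 and 4 rose, with medians of -0.39, -0.42 and -0.25.

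The 7 subunits of complex I encoded in mitochondrial DNA went from a sum of 120375 ± 3676 CPM (SD, n = 2) in chow to 149066 ± 5585 CPM (SD, n = 3) in HFHS hearts. None fell, 4 rose and 3 did not pass, where 18.7% of all tested genes fell and 19.4% rose. The ratio of the sum of these 7 to the nuclear-encoded sum was 17.5, 17.4 and 15.8 in the HFHS hearts and 9.99 and 9.48 in the chow hearts. The largest part of the summed rise was that of mt-Nd5, a proton-pumping subunit at the end of the membrane arm, which rose 2.24-fold from 15806 ± 624 CPM to 35456 ± 2386 CPM (edgeR adjusted p 6.01e-08). Another membrane arm subunit gene, mt-Nd2, was at 24646 ± 534 CPM in chow and 31278 ± 1086 CPM in HFHS hearts, a rise of 0.34 on the log2 scale (edgeR adjusted p 0.000421). In contrast mt-Nd1 and mt-Nd4 had log2 fold changes of -0.11 and 0.08 with edgeR adjusted p of 0.16 and 0.297. Under each of the 3 offsets 6 of the 7 rose, among them, with exon length and GC content, mt-Nd1 at 0.24 and mt-Nd4 at 0.34, so the count of risen genes and the direction of mt-Nd1 rest on that choice. Among all tested genes the 3 offsets called 14.4%, 16.4% and 13.9% higher. The log2 fold change of mt-Nd6 was 0.46, and that of mt-Nd4l, which had only 268 to 518 counts per library, was 1.00. Whether these counts used strand is not given in the sources used here, and mt-Nd6 lies on the strand opposite to mt-Nd5.

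Of 11 genes of factors known to drive respiratory genes, 5 rose, none fell and 6 did not pass. Among all tested genes 19.4% rose and 18.7% fell. The median coding length of the 11 was 1362 bases, and of all tested genes from 1000 bases on 26.6% rose and 9.31% fell. Ppargc1b, a coactivator of mitochondrial genes, was at 16.1, 14.1 and 19.5 CPM in HFHS and 5.09 and 5.28 CPM in chow hearts, a 3.20-fold rise with an edgeR adjusted p of 2.74e-06. The nuclear receptor genes Esrrg and Esrrb rose 1.55-fold and 1.54-fold, while Nrf1 had a log2 fold change of -0.11 with an edgeR adjusted p of 0.57. That of Nrf1 depended on the offset: it was -0.43 with exon length and GC content (edgeR adjusted p 0.0301), where it was called lower, -0.04 with median transcript length and 0.03 with the longest-CDS transcript. Of the 11 genes, 4 rose and 3 fell under the exon length and GC offset, and 5 rose and 1 fell under the median transcript length offset. Under the longest-CDS offset 3 rose and 3 fell. In the same order, 14.4%, 16.4% and 13.9% of all tested genes rose, and 16.3%, 16.3% and 15.2% fell.

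Libraries and markers were compared as well. Total counts ran from 14362766 to 17774735 per library, mitochondrially encoded genes took 30.3% to 33.8% of them, and each member had at least 149 counts in every library. Cardiomyocyte markers summed to 68285 to 71691 CPM in HFHS and 66466 to 71264 CPM in chow hearts, and of the 10 markers 5 fell and 3 rose. That sum rests much on Myh6, with means of 13297 CPM in chow and 23360 CPM in HFHS hearts. Ryr2 and Actn2 rose as well, while Tnnt2, Tnni3, Myl2, Myl3 and Mb fell, with log2 fold changes from -0.60 to -0.19. Among all tested genes 18.7% fell and 19.4% rose. The 9 macrophage markers all fell, from sums of 426 to 496 CPM in chow to 163 to 192 CPM in HFHS hearts, and the 5 erythroid markers fell from 1429 to 1635 CPM to 259 to 534 CPM. Fibroblast markers fell in 8 of 8 genes (1294 to 1414 CPM in chow, 860.0 to 939 CPM in HFHS), endothelial markers in 5 of 8 (1104 to 1136 CPM, 942 to 980.1 CPM) and pericyte and smooth muscle markers in 3 of 8, with 1 higher (1389 to 1390.3 CPM, 1284 to 1368 CPM). The 5 adipocyte markers summed to at most 0.608 CPM in any library, so the defining genes of fat were near 0. The part of these cell types in the members' differences was not tested.

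Some members share exon bases with a gene on the other strand, which cannot be told apart where counting ignored strand; the strand setting is not given in the sources used here. The largest shares were 39.0% of Ndufb6 exon bases with Smim27 (19 to 49 counts per library), 30.0% of Ndufa13 with Tssk6 (0 to 3 counts), 12.9% of Ndufb11 with Rbm10 (335 to 484 counts) and 12.3% of Ndufb5 with Mrpl47 (344 to 575 counts). What was done with multi-mapping reads is likewise not stated there, so reads from processed copies could count towards a member or be lost from it.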

How the data were processed

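The authors deposited raw read counts per gene, 1 table per library, with exon coordinates and exon length per the file headers. The submitters' processing notes name GRCm38, STAR 2.5.2b, Trimmomatic 0.36, featureCounts and Subread 1.5.2. For annotation release, strand setting and multi-mapping reads, the choice is not given in the sources used here. Libraries were grouped by diet from their labels. Of 49315 genes, 49056 were found in GENCODE M21, the source of symbols, coding lengths and biotypes; 26 of the 38 members had the same start and end there.

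The test was edgeR's quasi-likelihood test (version 4.0.16, R 4.3.3) after filterByExpr and TMM, with diet as the only term (glmQLFit, glmQLFTest, Benjamini-Hochberg adjusted p of 0.05 over 14221 genes). The standard error (SE) is an approximation, the fold change over the root of its F. CPM values are the counts scaled by TMM-adjusted library size (TMM, trimmed mean of M-values). Chi-square per degree of freedom of the counts was 2.64 to 5.71 between HFHS libraries, 8.84 between chow libraries and 47.5 to 62.5 between diets, so no pair was within sampling noise.

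Members and lists were chosen with earlier results of these data known. Genes given per library were the core subunits, in each module the 3 with the smallest and the 1 with the largest p, members outside the modules, the longest and shortest, and any that rose (1 gene that met this rule is not reported here); Ndufa9, Ndufa11 and Nrf1 were added after their values were seen, as were genes named only with a fold change. Alternatives were DESeq2 1.42.0, limma-voom (limma 3.58.1), other size factors and filters, fits without mitochondrially encoded genes or without 1 library, a block on replicate number, and offsets from smooth trends on exon length and GC content (mgcv 1.9.3). The 2 offsets on transcript length were chosen after seeing the data. The fit was tested on simulated data.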

Additional observations from a re-analysis of the deposited data

How the results depend on the processing

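The counts of 34 members lower and 1 higher were the same with DESeq2, limma-voom, DESeq2 or upper-quartile size factors, no filter or a filter of 1 CPM in 2 libraries, and without mitochondrially encoded genes. They were also the same with the replicate block, which takes the diet difference from replicates 1 and 2 only. Leaving out 1 library at a time gave 33 to 34 members lower and 1 higher, with a median log2 fold change from -0.73 to -0.66; where 1 chow library was left, it was assumed to vary like the HFHS libraries. The median of the iron-sulfur cluster subunits ran from -0.53 to -0.33 over these fits. For the genes picked by rule for values per library, 360 checks kept the direction and the side of the threshold. Another 13 kept the direction but lost the call (Ndufs3, Ndufs7, Ndufb10 and Ndufa4l2, all with length offsets). A call was gained in 2 (Ndufa10), and the sign changed in 5 (Ndufv1). Ndufa9, Ndufa11 and genes named only with a fold change were outside these checks. Of those, Ndufa8, Ndufa9, Ndufb3 and Ndufc2 lost the call with the exon length and GC offset. Ndufa9 also lost it without HFHS replicate 2, and its log2 fold change was 0.03 with the longest-CDS transcript.

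The medians moved towards 0 under each length offset, an alternative built to take off a trend on length. With exon length and GC content, the medians were -0.39 for all members, -0.40 for the N module, -0.18 for the Q module, -0.35 for the proximal arm, -0.55 for the distal arm, and -0.17 for both the core and the iron-sulfur cluster subunits. With exon length alone they were -0.405, -0.42, -0.16, -0.33, -0.54 and -0.15. With median transcript length and GC content they were -0.45, -0.47, -0.19, -0.44 and -0.44, then -0.18 for the core and -0.20 for the iron-sulfur cluster subunits. With the longest-CDS transcript and GC content they were -0.34, -0.375, -0.0376, -0.25 and -0.35, then -0.0222 and -0.053. Under each of these 4 offsets 2 genes of the Q module and 2 core subunits were lower, and under both transcript offsets 2 members, 1 of them in the proximal arm, were higher. Ndufv1, which did not pass, changed sign: its log2 fold change was 0.0669 with exon length and GC content, 0.0767 with exon length alone, 0.0543 with median transcript length, and 0.122 with the longest-CDS transcript.

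Replicate numbers are shared between the diets, but the labels give only numbers. Deviations of same-numbered libraries from their group means had correlations of 0.035 and 0.026. With 2 chow libraries, the deviations of the chow pair mirror each other. These values therefore cannot show whether same-numbered libraries belong together, and the main test did not pair them. Replicate 3 exists only in HFHS, so with the replicate block it adds nothing to the diet difference. With that block the medians of the Q module and of the iron-sulfur cluster subunits were -0.47 and -0.535. Without HFHS replicate 3 and with no block they were -0.466 and -0.53. With the replicate block and the exon length and GC offset, the medians were -0.42 for all members, -0.42 for the N module, -0.23 for the Q module, -0.36 for the proximal arm, -0.60 for the distal arm, -0.21 for the core and -0.24 for the iron-sulfur cluster subunits; 30 members were lower, and Ndufv1 came to 0.0726.

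The 2 chow libraries limit the estimate of spread. Members had at least 149 counts per library, so depth limited few of them.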
